A study of Mus musculus with 3 samples.

Results

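The genes described here are 10 members of the anaphase-promoting complex (APC/C) pathway, chosen by name from the 21951 protein-coding genes among the 55450 genes of GENCODE M21. They comprised the ubiquitin-conjugating enzymes Ube2c and Ube2s, the activators Cdc20 and Fzr1, the inhibitor Fbxo5, and the complex subunits Anapc1, Anapc2, Anapc5, Anapc11 and Cdc27. A peak was assigned to a gene when it touched the gene body or the 5 kb before its 5′ end, and Ube2c was then set against its 9 partners. The samples were cerebral cortices of mouse embryos at E13.5, whole tissue that holds progenitors, neurons and other cells together, fixed in formaldehyde and sonicated. The study asked which genes NF-Y occupies early in cortical development. There was 1 library from NF-Y-ChIP, made with an antibody against the NF-YC subunit, 1 from H3K4me3-ChIP and 1 from input chromatin without antibody. The labels give no strain or genetic modification for the embryos, and the number of embryos pooled is not given in the sources used here.

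The APC/C is a ubiquitin ligase that marks mitotic proteins for destruction by the proteasome, so that chromosomes separate and cells leave mitosis. Ube2c places the first ubiquitin on a substrate, Ube2s extends the chain, and Cdc20 or Fzr1 brings substrates to the complex, while Fbxo5 holds it inactive until mitosis. In the embryonic cortex the progenitors of the ventricular zone divide continually and depend on this machinery. NF-Y is a trimer of NF-YA, NF-YB and NF-YC that binds the CCAAT box, a promoter element frequent in genes of the G2 and M phases, and H3K4me3 is a histone mark of active promoters.

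The promoter sequences below were chosen because they show the boxes at the members with an NF-Y-ChIP peak, Ube2c and Anapc5, beside those at Cdc20 and Ube2s, which had boxes but no NF-Y-ChIP peak. Each is written 5′ to 3′ on the strand of its gene, from the GRCm38 reference, and the capitals mark CCAAT or its reverse complement ATTGG. The Ube2c stretch is chr2:164769688-164769897 on the plus strand and covers the 210 bp before the gene. The others are chr5:122821338-122821489 for Anapc5, chr4:118437353-118437502 for Cdc20 and chr7:4812591-4812740 for Ube2s, all on the minus strand, and cover the 150 bp before the gene. The Anapc5 stretch also takes in the first 2 transcribed bases, since a box spans the 5′ end.
Ube2c: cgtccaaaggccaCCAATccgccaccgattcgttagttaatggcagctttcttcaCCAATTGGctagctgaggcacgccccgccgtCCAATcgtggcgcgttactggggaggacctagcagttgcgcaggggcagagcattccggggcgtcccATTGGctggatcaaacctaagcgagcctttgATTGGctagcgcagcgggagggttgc
Anapc5: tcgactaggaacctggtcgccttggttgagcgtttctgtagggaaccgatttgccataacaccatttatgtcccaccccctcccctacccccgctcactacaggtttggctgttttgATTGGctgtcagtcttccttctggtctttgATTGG
Cdc20: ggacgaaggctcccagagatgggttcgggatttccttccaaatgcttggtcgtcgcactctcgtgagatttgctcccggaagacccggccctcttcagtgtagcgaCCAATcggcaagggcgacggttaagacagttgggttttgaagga
Ube2s: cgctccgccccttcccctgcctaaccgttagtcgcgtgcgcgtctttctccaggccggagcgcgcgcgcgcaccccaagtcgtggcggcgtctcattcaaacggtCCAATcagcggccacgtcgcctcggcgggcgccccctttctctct
In the Ube2c stretch, a CCAAT on each strand overlap in CCAATTGG.

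With 1 library per antibody there was no replicate error, so no test could be made and all comparisons below describe these libraries. For NF-Y-ChIP, 733 peaks were called, with fold enrichments from 1.46 to 53.1 (median 6.75), and for H3K4me3-ChIP 18816, with a median of 27.5. The fold enrichment is the signal at the summit of a peak relative to its local background. Read depth is unknown, and a gene without a peak is one where none was called at that depth. In whole tissue, a site occupied in few cells and a site weakly occupied in all cells cannot be told apart. All 8 marker genes of the embryonic cortex carried H3K4me3-ChIP signal at a promoter, as a peak up to 1 kb from a transcription start site (TSS), the weakest at 4.61-fold in Neurod6. Of 7 marker genes of other cells, only the endothelial gene Cldn5 did, at 9.38-fold. Such signal was common, present at 13767 of the 21951 protein-coding genes.

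NF-Y-ChIP peaks were found at 2 of the 10 members, Ube2c and Anapc5. By the same rule 3.69% of all protein-coding genes had an NF-Y-ChIP peak, and among the genes that also had an H3K4me3-ChIP peak the share was 5.6%. The members were thus divided into Ube2c and 1 partner with a peak and 8 partners without. H3K4me3-ChIP peaks were found at all 10 members, where 65.4% of protein-coding genes had one. The presence of an H3K4me3-ChIP peak therefore did not separate the members with NF-Y-ChIP peaks from those without. The map of peaks shows the positions of both kinds at each gene.

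**Figure D1:**
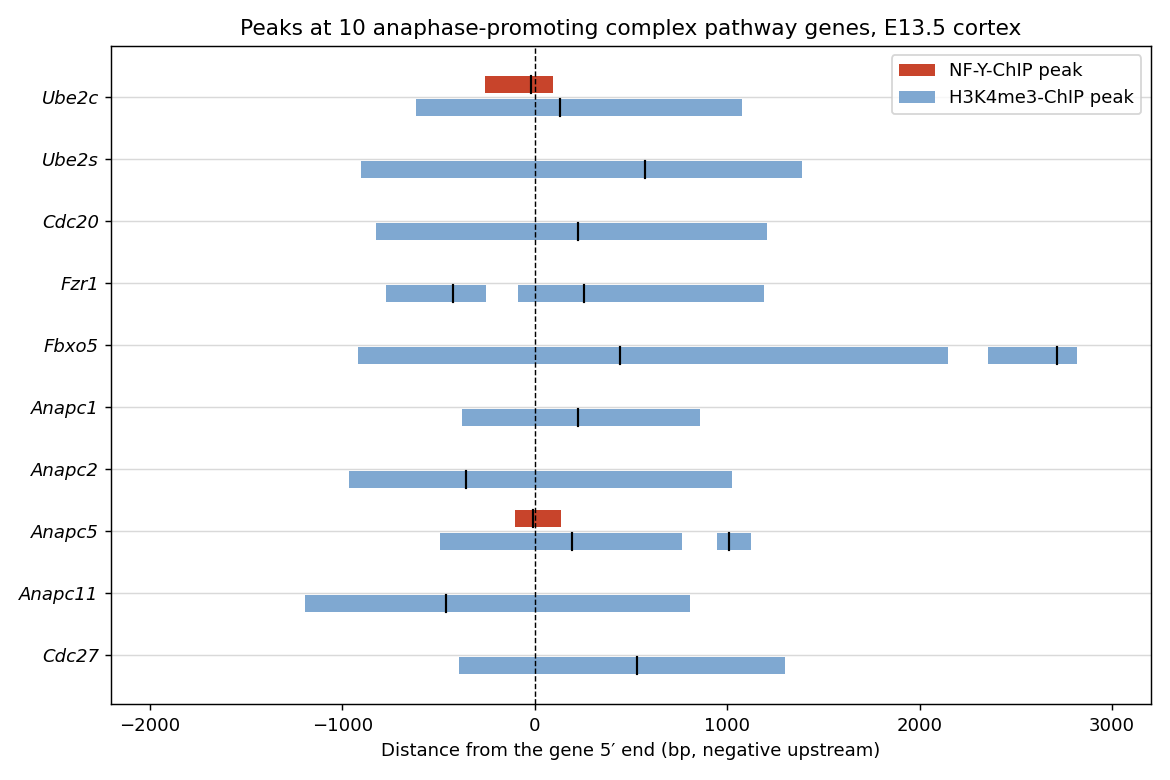
Peaks of NF-Y-ChIP (red) and H3K4me3-ChIP (blue) at the 10 members, by distance from the gene 5′ end in bp, negative upstream, with a black tick at each summit and a dashed line at the 5′ end. Only Ube2c and Anapc5 of these genes have a red bar, while every gene has an H3K4me3-ChIP peak over its 5′ end.

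Ube2c (ENSMUSG00000001403), the enzyme that starts ubiquitin chains with the APC/C, lies at chr2:164769898-164778822 on the plus strand. Its NF-Y-ChIP peak occupied 164769638 to 164769995, that is from 260 bp upstream of the gene to 97 bp within it. The fold enrichment was 8.20, with a −log10 p-value of 16.6 and a −log10 q-value of 11.6, and it ranked 228 of 733. The peak was of moderate height but wide. At 358 bp, it was at percentile 95.8 of the widths in the list, whose median was 224 bp. The summit lay 19 bp before the 5′ end, which was also the nearest annotated TSS. No other protein-coding gene starts near it, since the closest 5′ end, that of Tnnc2, is 10069 bp away.

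The Ube2c peak held 6 CCAAT boxes, on either strand. Their centres were at −195, −153, −150, −122, −55 and −24 bp from the 5′ end, so all lay upstream of the gene. The boxes at −153 and −150 are the overlapping pair in the sequence above. The box nearest the summit was 5 bp from it, and the next, 31 bp further upstream, was the only other within 50 bp of the summit. Across the NF-Y-ChIP list the median number of boxes per peak was 2, and 14.3% of peaks had 4 or more. The Ube2c peak was thus among the richer ones in CCAAT boxes, in a list where 88.3% of peaks had at least 1 within 50 bp of the summit. A wider peak covers more sequence, and the count was not corrected for width.

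The H3K4me3-ChIP peak of Ube2c was 1697 bp wide, from 617 bp upstream to 1079 bp downstream of the 5′ end, and contained the whole NF-Y-ChIP peak. Its fold enrichment was 67.2, rank 899 of 18816 peaks, with the summit 133 bp downstream of the 5′ end in an exon. The summits were 152 bp apart, with NF-Y before the start of the gene and H3K4me3 behind it. When the 14352 protein-coding genes that had one were ordered by their strongest H3K4me3-ChIP peak, Ube2c stood at percentile 92.4. Of the 9 partners, 8 had a lower H3K4me3-ChIP fold enrichment. The partners' median was 49.1-fold, which put Ube2c higher by 0.45 on the log2 scale.

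The genes whose pair of fold enrichments was most like that of Ube2c were sought among 687 protein-coding genes that had a summit of both lists no more than 1 kb from a start site. The measure was the distance over the log2 of both values. The nearest were Tlk2, with 8.24-fold for NF-Y-ChIP and 67.8-fold for H3K4me3-ChIP, Zfp39, with 8.24-fold and 66.2-fold, and Ankhd1, with 8.19-fold and 69.1-fold. Their distances to Ube2c were 0.014, 0.023 and 0.039. The summit given for Tlk2 lies nearest to a TSS of 1700052K11Rik, 38 bp from it, so the peak is not tied to Tlk2 alone. None of these genes is on the APC/C pathway list used here.

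Anapc5 (ENSMUSG00000029472), a scaffold subunit of the complex, was the only partner of Ube2c with an NF-Y-ChIP peak. The gene lies at chr5:122787459-122821339 on the minus strand, and the peak ran from 122821202 to 122821440, a width of 239 bp. Its fold enrichment of 9.25 ranked 158 of 733, with a −log10 p-value of 20.7 and a −log10 q-value of 15.5. The values of Ube2c and Anapc5 were close, with a log2 ratio of −0.17 for Ube2c to Anapc5, and without replicates no error can be set against this difference. The summit of the Anapc5 peak lay 9 bp upstream of the 5′ end.

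The Anapc5 peak held 2 CCAAT boxes, against 6 in that of Ube2c. Their centres were at −31 and −1 bp, so the second spans the annotated 5′ end, and they were 22 and 8 bp from the summit. The boxes stood 30 bp apart in the same orientation, and those nearest the Ube2c summit stood 31 bp apart, also in the same orientation. A spacing of 30 to 32 bp, a range chosen after these values were seen, occurred in 23.6% of the 471 NF-Y-ChIP peaks with 2 or more boxes within 100 bp of the summit. It occurred in 22.2% of 333 marked promoters with an NF-Y-ChIP peak and at least 2 boxes, and in 16.3% of 847 such promoters without a peak. A peak counted here anywhere in the gene or the 5 kb before it. It was present for 23.6% of marked promoters with 2 boxes and 44.0% of those with 3 or more. Promoters with a peak thus more often held 3 or more boxes, which form more pairs, and the shares were not corrected for this. The strongest H3K4me3-ChIP peak of Anapc5 was 49.1-fold, at percentile 68.1 among genes, with its summit 200 bp from that of NF-Y-ChIP. A second H3K4me3-ChIP peak of 5.40-fold lay in an intron, 1010 bp downstream of the 5′ end. The plot of both fold enrichments shows Ube2c and Anapc5 in the middle of the NF-Y-ChIP range.

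**Figure D2:**
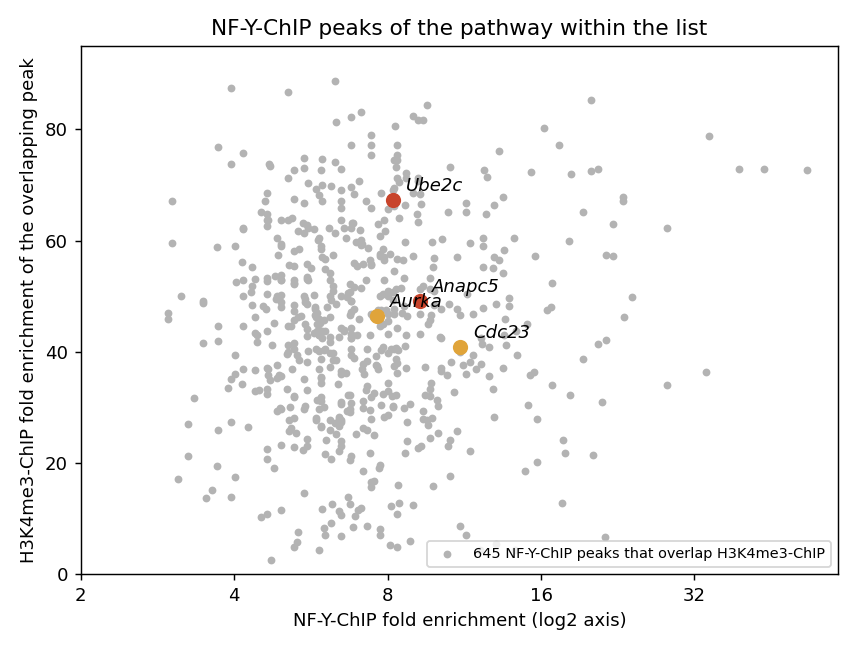
NF-Y-ChIP fold enrichment (x axis, log2 scale) against the fold enrichment of the overlapping H3K4me3-ChIP peak (y axis, linear) for the 645 NF-Y-ChIP peaks that overlapped one (grey), with the members in red and the other pathway genes in orange. The 4 pathway peaks lie between 7.63-fold and 11.1-fold for NF-Y-ChIP, within the bulk of the list.

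Ube2s (ENSMUSG00000060860), the enzyme that elongates ubiquitin chains, lies at chr7:4794546-4812590 on the minus strand. It acts right after Ube2c in the same reaction, but no NF-Y-ChIP peak was called there. The nearest NF-Y-ChIP summit was 72.9 kb away at Kmt5c. Its H3K4me3-ChIP peak was 2291 bp wide and 52.1-fold, at percentile 73.4 among genes. The summit lay 573 bp downstream of the gene 5′ end but 107 bp from the nearest of its 5 annotated TSSs. The 150 bp before the 5′ end held 1 box, at −43 bp, and a further box lay at −202 bp. The RefSeq start of Ube2s is 250 bp downstream of the GENCODE 5′ end, and the 150 bp before it held no box.

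Cdc20 (ENSMUSG00000006398), which activates the APC/C at the metaphase to anaphase transition, lies at chr4:118432901-118437352 on the minus strand. It had no NF-Y-ChIP peak, and the nearest summit was 887 kb away at Eri3. The promoter had a box at −42 bp and a second at 3 bp, just inside the gene, 45 bp apart. The H3K4me3-ChIP peak of Cdc20 was 2032 bp wide and 42.6-fold, at percentile 55.1, with the summit 226 bp downstream. Fzr1 (ENSMUSG00000020235), the activator that takes over in late mitosis and G1, lies at chr10:81366222-81378516 on the minus strand. Its nearest NF-Y-ChIP summit was 28.0 kb away at Hmg20b, and its window from 250 bp upstream to 50 bp downstream held no box. Fzr1 had an H3K4me3-ChIP peak of 47.0-fold with a summit 254 bp downstream and a second of 15.5-fold, 424 bp upstream, with a gap between them. The activators thus had like H3K4me3-ChIP values and no NF-Y-ChIP peak.

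Fbxo5 (ENSMUSG00000019773), also known as Emi1, which inhibits the APC/C in S and G2 phases, lies at chr10:5799160-5805600 on the minus strand. It had the broadest H3K4me3-ChIP peak of the members, 3070 bp, with a fold enrichment of 59.4 at percentile 84.4 and a weak second peak of 4.34-fold in an intron. It had no NF-Y-ChIP peak, and the nearest summit, at Hey2, was 25037 kb away, the farthest of the members. In the 150 bp before the GENCODE 5′ end of Fbxo5 there was no box. The RefSeq start lies 135 bp further downstream, and the 150 bp before it held 3 boxes, at −91, −53 and −23 bp. The last pair stood 30 bp apart, as in Anapc5. Fbxo5 was therefore a member with several boxes before an annotated start and no NF-Y-ChIP peak.

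Among the subunits other than Anapc5, none had an NF-Y-ChIP peak. Anapc1 (ENSMUSG00000014355), the largest scaffold subunit, lies at chr2:128610104-128687391 on the minus strand. It had the highest H3K4me3-ChIP fold enrichment of the members, 84.7, which ranked 29 of 18816 peaks and stood at percentile 99.8 among genes. The log2 ratio of H3K4me3-ChIP fold enrichment was −0.33 for Ube2c to Anapc1. Anapc1 had no box from 250 bp upstream to 50 bp downstream of its 5′ end, and its nearest NF-Y-ChIP summit was 1113 kb away at Stk35. The member with the strongest H3K4me3 signal was thus one without an NF-Y-ChIP peak and without a box in this window.

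Anapc2 (ENSMUSG00000026965), the cullin subunit, and Anapc11 (ENSMUSG00000025135), the RING subunit, together form the catalytic core that receives Ube2c. Anapc2 lies at chr2:25272478-25285915 on the plus strand, and Anapc11 at chr11:120598421-120608198, also on the plus strand. Both share a promoter with a divergent neighbour, Ssna1 starting 40 bp from Anapc2 and Alyref starting 56 bp from Anapc11. Their H3K4me3-ChIP peaks, of 36.5-fold and 46.5-fold, had summits at −357 and −462 bp, on the side of the neighbour. The summits were 283 bp downstream of a TSS of Ssna1 and 272 bp downstream of a TSS of Alyref, so the deposited peaks do not assign this signal to the member alone. The nearest NF-Y-ChIP summits were 10.0 kb away for Anapc2, at Tprn (4.86-fold), and 25.3 kb away for Anapc11, at P4hb (3.71-fold). In the 150 bp upstream, neither gene had a box, and Anapc11 had 1 at 29 bp within the gene.

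Cdc27 (ENSMUSG00000020687), a subunit with tetratricopeptide repeats that binds the activators, lies at chr11:104502745-104550620 on the minus strand. It is divergent from Myl4, a muscle gene that starts 43 bp away. The H3K4me3-ChIP peak was 1693 bp wide and 50.1-fold, at percentile 69.9, with its summit 531 bp downstream of the Cdc27 5′ end and 303 bp from its nearest TSS. The 150 bp before Cdc27 held 2 boxes, at −64 and −100 bp, a spacing of 36 bp. Both lay beyond the Myl4 start at −43 bp, and so within the annotated Myl4 gene. No NF-Y-ChIP peak was called there, and the nearest summit was 631 kb away. The plot of H3K4me3-ChIP values shows that the members with and without an NF-Y-ChIP peak were interleaved.

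**Figure D3:**
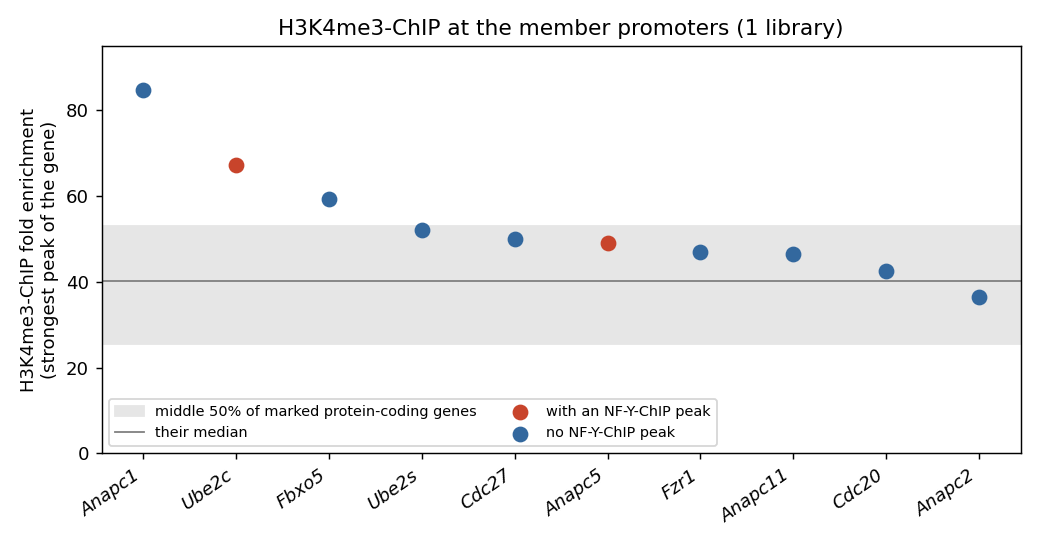
H3K4me3-ChIP fold enrichment of the strongest peak of each member (y axis), ordered from high to low, with the members that had an NF-Y-ChIP peak in red. The grey band spans the middle 50% of the 14352 protein-coding genes with a peak, 25.5 to 53.0, with their median of 40.1 as a line, and 9 of the 10 members lie above that median. There is 1 library, so the points have no error bars.

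Counted over the members, 5 of 10 had a CCAAT box in the 150 bp before the gene 5′ end, namely Ube2c, Ube2s, Cdc20, Anapc5 and Cdc27. Marked promoters are here the 13767 protein-coding genes whose start, at any annotated TSS, had H3K4me3-ChIP signal no more than 1 kb away, and 27.2% of them had a box. Of these 5 members, 3 had no NF-Y-ChIP peak. In this window Ube2c had 3 boxes, Cdc27 had 2 and the others had 1. For the next shares an NF-Y-ChIP peak counted anywhere in the gene or the 5 kb before it, not only at the boxes. The share of marked promoters with an NF-Y-ChIP peak was 2.59% with no box, 7.43% with 1 box, 23.6% with 2 and 44.0% with 3 or more. Ube2c, with the most boxes of the members, thus belonged to the class with the highest share, and Anapc5 to the class with 1 box. When the window ran from 250 bp upstream to 50 bp downstream, 7 of the members and 38.1% of marked promoters had a box.

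The starts of RefSeq gave another count. All 10 members were matched by symbol, and 7 had a box in the 150 bp before a RefSeq start, against 31.4% of the 10728 marked promoters that were matched. Fzr1, Fbxo5 and Anapc11 gained a box by this measure and Ube2s lost its box. Of the 246 genes with 3 or more boxes before a RefSeq start, 38.6% had an NF-Y-ChIP peak, and Fbxo5 was the only member in this class. Ube2c, Cdc20 and Cdc27 had 2 boxes each, a class in which 24.8% of 847 genes had a peak. The map of motifs shows how the boxes were placed around the GENCODE 5′ ends.

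**Figure D4:**
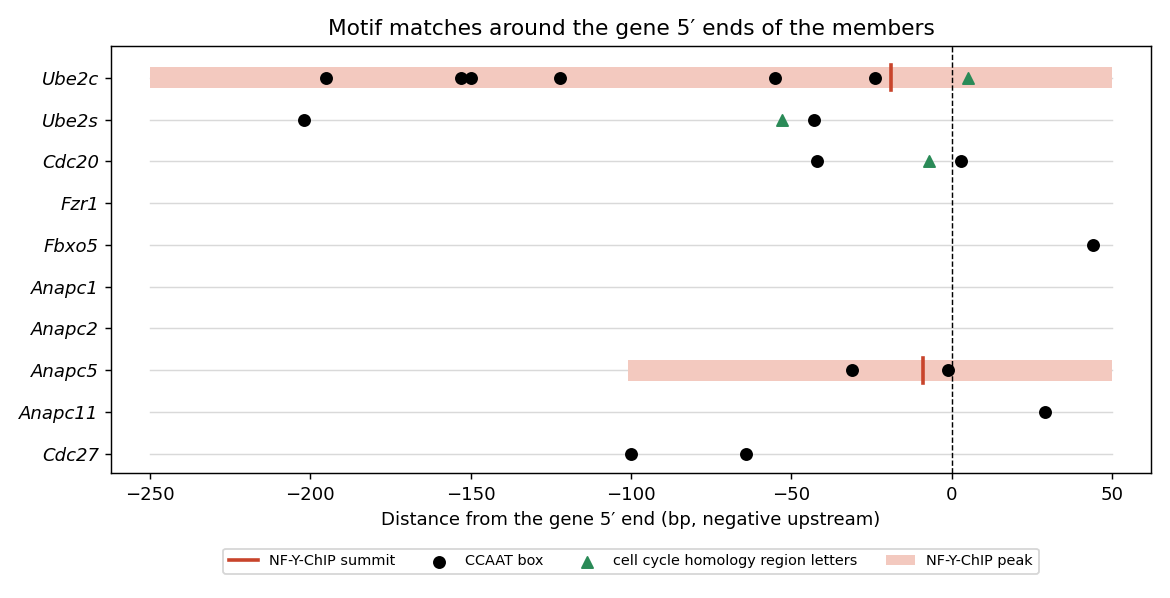
Centres of CCAAT boxes (black circles) and of matches to the cell cycle homology region (green triangles) on either strand, from 250 bp upstream to 50 bp downstream of the 5′ end of each member, in bp. Pink bars and red ticks give the NF-Y-ChIP peak, clipped to the window, and its summit, which are present at Ube2c and Anapc5, while Ube2s, Cdc20 and Cdc27 have boxes upstream without a peak.

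A pair of other promoter elements of cell cycle genes were searched in the same windows on both strands. TTTGAA and TTCGAA, the core letters of the cell cycle homology region, were found in the 150 bp before 2 of the members, Ube2s at −53 bp and Cdc20 at −7 bp, and in 6.23% of marked promoters. These are the letters ttcaaa and tttgaa in the sequences above, upstream of the box in Ube2s and between the boxes at −42 and 3 bp in Cdc20. In the wider window Ube2c also had a match, at 5 bp, and the share of marked promoters was 13.8%. The E2F-like letters TTCCCGC and TTGGCGC were found in none of the members in either window, where 6.67% and 12.0% of marked promoters had them. A match of letters is a description of the reference sequence and not evidence of binding.

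The base composition of the 150 bp before the gene differed between the members with an NF-Y-ChIP peak. The window of Ube2c had 64% G and C and 12 CpG dinucleotides, near the medians of marked promoters, 62% and 10. That of Anapc5 had 51.3% and 5 CpG, below the middle 50% of marked promoters, which ran from 54.7 to 69.3% and from 6 to 15 CpG. Among the partners without an NF-Y-ChIP peak the share of G and C ran from 55.3% in Anapc1 to 69.3% in Ube2s and Anapc2.

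A wider list of 41 genes of the pathway held the 10 members and 31 more, with 14 subunits, 12 regulators (conjugating enzymes, activators, inhibitors and part of the spindle checkpoint) and 15 substrates. All 41 had an H3K4me3-ChIP peak, as did 65.4% of all protein-coding genes. The median was 45.5-fold over the list, 49.6-fold for the members and 42.7-fold for the others, beside 40.1-fold over all genes with a peak. NF-Y-ChIP peaks were found at 4 of the 41 (9.76%, beside 5.6% of all genes with an H3K4me3-ChIP peak), which added Cdc23 and Aurka to Ube2c and Anapc5. By role these were 2 of 14 subunits, 1 of 12 regulators and 1 of 15 substrates. The list does not hold every gene of the spindle checkpoint. Its kinase Ttk, which is outside the list and was picked after its value was seen, had an NF-Y-ChIP peak of 15.0-fold.

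Cdc23, a subunit with tetratricopeptide repeats like Cdc27, had an NF-Y-ChIP peak of 11.1-fold, rank 100, with its summit at −51 bp and 3 boxes in the peak. Aurka, the mitotic kinase Aurora A and an APC/C substrate, had one of 7.63-fold, rank 279, with its summit at −55 bp and 2 boxes that stood 32 bp apart. The overlapping H3K4me3-ChIP peak had its summit at −760 bp from Aurka, 561 bp downstream of a TSS of Cstf1. The NF-Y-ChIP summit was nearest to Aurka, but these peaks cannot be assigned to Aurka alone. Each of the 4 NF-Y-ChIP summits was upstream of its gene, from 9 bp in Anapc5 to 55 bp in Aurka, and each was no more than 8 bp from the centre of a box. A box lay in the 150 bp window of 9 of the 15 substrates, among them Ccnb1, Ccnb2, Pttg1 and Plk1, where 27.2% of all marked promoters had one. Of these 9 substrates Aurka alone had an NF-Y-ChIP peak in the gene or the 5 kb before it. Of all marked promoters with a box 14.0% had one by the same rule. Over the whole list 18 of 41 had a box in that window, against the same 27.2%.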

How the data were processed

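Chromatin from E13.5 cortices gave 3 libraries, of which NF-Y-ChIP and H3K4me3-ChIP each have a peak list and the input has none. The authors used Trimmomatic for quality trimming, Bowtie2 2.2.8 for alignment to mm10 (GRCm38) and MACS2 2.1.2 for peak calling (versions per the submitters' processing notes), at p below 0.001 for NF-Y-ChIP and q below 0.05 for H3K4me3-ChIP. The paper names the input as the negative control of the ChIP, but whether MACS2 used it is not given in the sources used here. The deposited values are a fold enrichment, which is a ratio to the local background, the −log10 p-value, the −log10 q-value, a display score and the summit. Neither list is tied to a sample in the labels. In the list taken as NF-Y-ChIP the deposited score follows the p-value, and in that taken as H3K4me3-ChIP the q-value, the statistics on which the authors set the thresholds. The number of peaks in the H3K4me3-ChIP list and its overlap with NF-Y-ChIP are not those the paper states, and the deposited list was used as it stands. Values were used as deposited.

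A peak was assigned to a gene of GENCODE M21 by an overlap of at least 1 bp with the gene body or the 5 kb before it, and sequences were read from GRCm38. RefSeq starts came from the GRCm38 promoter table. The named genes were all members, the genes of the wider list with an NF-Y-ChIP peak, the nearest neighbours of member peaks, and the 3 genes most like Ube2c. Other genes named (the nearest NF-Y-ChIP peaks and neighbouring genes of members without one, the marker genes Neurod6 and Cldn5, and substrates with a box) were chosen after their values were seen. The members and lists were chosen with earlier results of these data known. Alternatives covered the gene region, the p-value and q-value of NF-Y-ChIP peaks, the fold enrichment in both lists, the motif windows, the overlap and the start sites. The q threshold of H3K4me3-ChIP was not varied. With 1 library per antibody, no replicate error and no test were possible. The functions were tested on simulated data and gave the right answer in 1000 of 1000 regions, distances and windows. Simulated peaks outside a region lay only past its higher coordinate, and the simulated windows could hold no box but the added one. Python 3.11.15, pandas 2.3.3, NumPy 2.4.6, pysam 0.24.0 and matplotlib 3.10.9 were used.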

Additional observations from a re-analysis of the deposited data

How the results depend on the processing

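Ube2c and Anapc5 were the members with an NF-Y-ChIP peak in all 7 alternatives of the gene region, threshold and assignment, and the same 4 pathway genes had one in each. The number of protein-coding genes with an NF-Y-ChIP peak fell from 810 to 426 when only peaks at or above the median fold enrichment were kept, by construction of that alternative, and was between 607 and 808 in the others. The number of members with a CCAAT box in the 150 bp window rose from 5 to 8 when any annotated TSS counted, since more windows were searched, and the share of marked promoters rose likewise from 27.2% to 52.7%. The number of members was 7 with RefSeq starts, an alternative chosen after seeing the data. The other alternatives changed no count, except the wider promoter window given in the report. The pileup behind each fold enrichment was to be solved from the fold and the p-value, but whole numbers came out for 32 of 733 peaks (4.37%, within 0.01 of the −log10 p-value), so no counting interval is given. No paired analysis was possible because each antibody has 1 library.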
